A study of Mus musculus with 6 samples.

Results

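A set of 10 genes with lower values under both p/CIP siRNAs in mouse embryonic stem cells is described here: Necab1, Stmn3, Cobl, Islr2, St8sia1, Dpp4, Slc15a1, Cyp2b23, Accsl and Calcoco2. They are 10 of the 19938 genes that had a symbol of their own on the array, and 12 of its 35556 probe sets carry their names. They were chosen by their log2 array values, which were lower with each siRNA than in control cells, and because they belong to no classic stem cell pathway. For that reason their differences from control are given here as a description without a test. The rule had no numerical threshold.

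The arrays measured total RNA from E14, a line of mouse embryonic stem cells grown on adherent plates. The first group was transfected with siRNA 1 against p/CIP, the second with siRNA 2 against p/CIP, and the control group with a pool of siRNAs that have no specific target, with 2 arrays in each of the 3 groups. All the cells were thus transfected E14 cells, and an untransfected group was not analysed here. Nothing in the labels ties the 2 arrays of a group to separate cultures; the p-values therefore rest on a spread between arrays that may be technical.

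Values are the deposited ones, taken to be log2 from their range of 2.69 to 14.59; neither the labels nor the table states the log base, so folds depend on it. No detection call was used, and the number of arrays limits the precision. Ncoa3, the gene of p/CIP, read 10.71 and 10.93 with siRNA 1, 10.71 and 10.92 with siRNA 2, and 12.33 and 12.28 in control cells, so the siRNA labels and their target went together. Array siRNA 1 replicate 2 stood apart in its interquartile range, 3.13 against 3.33 to 3.45 on the other arrays. The stem cell markers Pou5f1 (12.68 to 12.82 on the siRNA arrays, 12.80 and 12.91 in control cells), Sox2 (12.20 to 12.38, and 12.35 and 12.54) and Nanog (12.55 to 12.71, and 12.89 and 13.05) were bright on every array.

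p/CIP is a coactivator: it has no DNA-binding domain of its own, joins nuclear receptors that carry a ligand or are active without one, and brings histone acetyltransferases to their target genes. In embryonic stem cells several orphan nuclear receptors take part in the network that keeps the cells pluripotent. The 10 genes have no common textbook role. Necab1, Stmn3 and Islr2 are best known from neurons, Dpp4 and Slc15a1 from the brush border of gut and kidney epithelium, Cyp2b23 belongs to a family of liver enzymes, St8sia1 makes gangliosides, Cobl builds actin filaments, and Calcoco2 is an autophagy receptor in human cells.

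RefSeq places the 10 genes on 7 chromosomes: Dpp4, Stmn3 and Accsl on chromosome 2, Cobl and Calcoco2 on chromosome 11, and the others on chromosomes 4 (Necab1), 6 (St8sia1), 7 (Cyp2b23), 9 (Islr2) and 14 (Slc15a1). Promoters of 8 of the 10 were matched in RefSeq's GRCm38.p6 table, as 13 windows that run from 250 bases before to 50 bases after a start site. These windows were searched on both strands for the nuclear receptor core AGGTCA and its extended form AAGGTCA. The extended form includes the core and is the form that binds orphan receptors such as Esrrb. The GC box GGGCGG, the CCAAT box and the TATA box TATAAA were searched for in the same way. The core was found in 2 of the 13 windows, those of Cyp2b23 and St8sia1, and in 16.3% of all 32851 windows of the table. The extended form was in 0 of the 13 windows and in 4.72% of all windows. The GC box was in 4 of the 13 (35.7% of all), the CCAAT box in 4 (37.4%) and the TATA box in 2 (13.6%). These are matches of letters and show no binding.

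The 4 windows below are the 2 with the nuclear receptor core and, for contrast in base composition, those of Cobl and Dpp4 (for Cobl, the first of 2 listed windows). They are written 5′ to 3′ on the strand of the gene, with every match to the 4 shorter motifs, on either strand, in capitals.
St8sia1 (chr6:142964403-142964702, minus strand): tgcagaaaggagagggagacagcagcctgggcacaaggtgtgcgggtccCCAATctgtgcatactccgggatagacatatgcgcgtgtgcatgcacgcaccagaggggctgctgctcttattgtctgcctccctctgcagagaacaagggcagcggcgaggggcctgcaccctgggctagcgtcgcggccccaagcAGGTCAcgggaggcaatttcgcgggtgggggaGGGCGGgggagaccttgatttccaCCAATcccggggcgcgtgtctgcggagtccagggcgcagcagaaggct
Cyp2b23 (chr7:26686381-26686680, minus strand): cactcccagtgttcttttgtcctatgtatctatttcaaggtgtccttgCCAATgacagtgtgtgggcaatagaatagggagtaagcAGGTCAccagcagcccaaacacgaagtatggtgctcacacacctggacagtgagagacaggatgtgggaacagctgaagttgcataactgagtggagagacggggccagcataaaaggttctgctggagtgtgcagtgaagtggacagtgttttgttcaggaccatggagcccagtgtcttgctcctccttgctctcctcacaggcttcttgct
Cobl (chr11:12464911-12465210, minus strand): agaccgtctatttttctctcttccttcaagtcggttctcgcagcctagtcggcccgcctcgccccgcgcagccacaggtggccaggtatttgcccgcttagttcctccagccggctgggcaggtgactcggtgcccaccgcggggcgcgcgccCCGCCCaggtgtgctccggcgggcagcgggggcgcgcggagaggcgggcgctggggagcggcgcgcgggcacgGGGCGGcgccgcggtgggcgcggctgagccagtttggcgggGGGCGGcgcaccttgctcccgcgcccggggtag
Dpp4 (chr2:62412182-62412481, minus strand): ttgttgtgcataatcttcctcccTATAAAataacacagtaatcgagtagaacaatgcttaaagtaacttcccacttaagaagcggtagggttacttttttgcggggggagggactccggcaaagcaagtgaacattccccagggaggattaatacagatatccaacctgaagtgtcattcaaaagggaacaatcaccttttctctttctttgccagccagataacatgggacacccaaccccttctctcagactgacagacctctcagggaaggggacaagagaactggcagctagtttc
In St8sia1 the core starts 54 bases before the start site and a GC box 22 bases before it. In Cyp2b23 the core starts 164 bases before the start site. The Cobl window is 75.3% G and C with 42 CpG pairs, and the Dpp4 window is 45.3% with 4, against medians of 52.7% and 7 over all windows. No motif among these was found in the windows of all 8 matched members. Base composition differed among the windows, also within a gene: the second Cobl window is 43.0% G and C with 0 CpG pairs.

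The genes of the cytoskeleton and of calcium binding come first. Necab1, a neuronal protein with EF-hand calcium-binding motifs, read 7.48 and 7.64 with siRNA 1, 7.87 and 7.97 with siRNA 2, and 9.04 and 8.81 in control cells. All 4 siRNA arrays were below both control arrays, and both siRNA 1 arrays were below both siRNA 2 arrays. Over both siRNAs the log2 difference was -1.18 (standard error 0.0946), or 44.1% of the control level, the largest difference of the 10.

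Stmn3 encodes SCLIP, a neuronal stathmin that binds tubulin and destabilises microtubules. It read 8.94 and 8.79 with siRNA 1, 8.98 and 8.65 with siRNA 2, and 10.002 and 9.597 in control cells, a log2 difference of -0.96 (standard error 0.142). The siRNA groups overlapped each other and lay below control. A second probe set, built on 1 transcript record where the first lists 5, read 5.29 and 5.34 with siRNA 1, 5.14 and 5.34 with siRNA 2, and 5.11 and 5.30 in control cells. That dim probe set gave 0.07, so the lower Stmn3 value rests on 1 of the 2 probe sets.

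Cobl (cordon-bleu), which nucleates actin filaments through its WH2 domains, read 8.87 and 8.84 with siRNA 1, 8.98 and 8.87 with siRNA 2, and 10.09 and 9.69 in control cells. Its siRNA arrays lay within a narrow band while the control arrays differed by 0.40. The log2 difference was -0.995 (standard error 0.116), or 50.2% of control.

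The genes that act at the cell surface or make gangliosides come next. Islr2 (Linx) is a transmembrane protein with leucine-rich repeats and an immunoglobulin domain that takes part in axon growth. It read 7.19 and 7.24 with siRNA 1, 7.31 and 7.51 with siRNA 2, and 8.19 and 8.11 in control cells. Its log2 difference was -0.84 (standard error 0.0827), with the siRNA 1 arrays below those of siRNA 2. St8sia1, the sialyltransferase that makes ganglioside GD3 from GM3, read 7.41 and 7.59 with siRNA 1, 7.68 and 7.81 with siRNA 2, and 8.71 and 8.41 in control cells. The order of the 3 groups was the same as for Necab1 and Islr2, without overlap, and the difference from control was -0.94 (standard error 0.110).

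Dpp4 (CD26) is a membrane peptidase that removes dipeptides from the ends of incretins and chemokines. It read 7.86 and 7.82 with siRNA 1, 7.98 and 7.98 with siRNA 2, and 8.76 and 8.66 in control cells. Its arrays agreed most closely within groups, and it had the smallest difference of the 10, -0.80 (standard error 0.0682), or 57.6% of control. Slc15a1 (PEPT1), the proton-coupled transporter that takes up dipeptides and tripeptides, read 7.26 and 6.76 with siRNA 1, 7.32 and 6.92 with siRNA 2, and 8.27 and 7.74 in control cells. In each group replicate 2 lay at least 0.40 below replicate 1, and the difference from control was -0.93 (standard error 0.205).

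Cyp2b23, a cytochrome P450 of the CYP2B family of monooxygenases, read 9.72 and 9.93 with siRNA 1, 9.89 and 9.84 with siRNA 2, and 10.79 and 10.68 in control cells, a difference of -0.89 (standard error 0.0856). The Cyp2b genes are close copies of each other, and how far a probe set tells them apart was not tested. Accsl, named for its likeness to plant ACC synthase and without a settled function in mammals, read 8.34 and 7.98 with siRNA 1, 8.47 and 8.23 with siRNA 2, and 9.19 and 8.99 in control cells (-0.84, standard error 0.128).

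Calcoco2 (NDP52) links ubiquitin-coated bacteria and mitochondria to the autophagy machinery in human cells. It read 8.48 and 7.95 with siRNA 1, 8.61 and 8.31 with siRNA 2, and 9.93 and 9.05 in control cells, a difference of -1.15 with the largest standard error of the 10, 0.258. The control arrays differed by 0.88, and the difference was -0.71 without control replicate 1 and -1.59 without control replicate 2. A second probe set with the same 3 transcript records read 8.29 and 7.94 with siRNA 1, 8.32 and 8.25 with siRNA 2, and 9.41 and 8.87 in control cells, a difference of -0.94. Both Calcoco2 probe sets thus put all siRNA arrays below control and both put control replicate 1 on top.

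**Figure D1:**
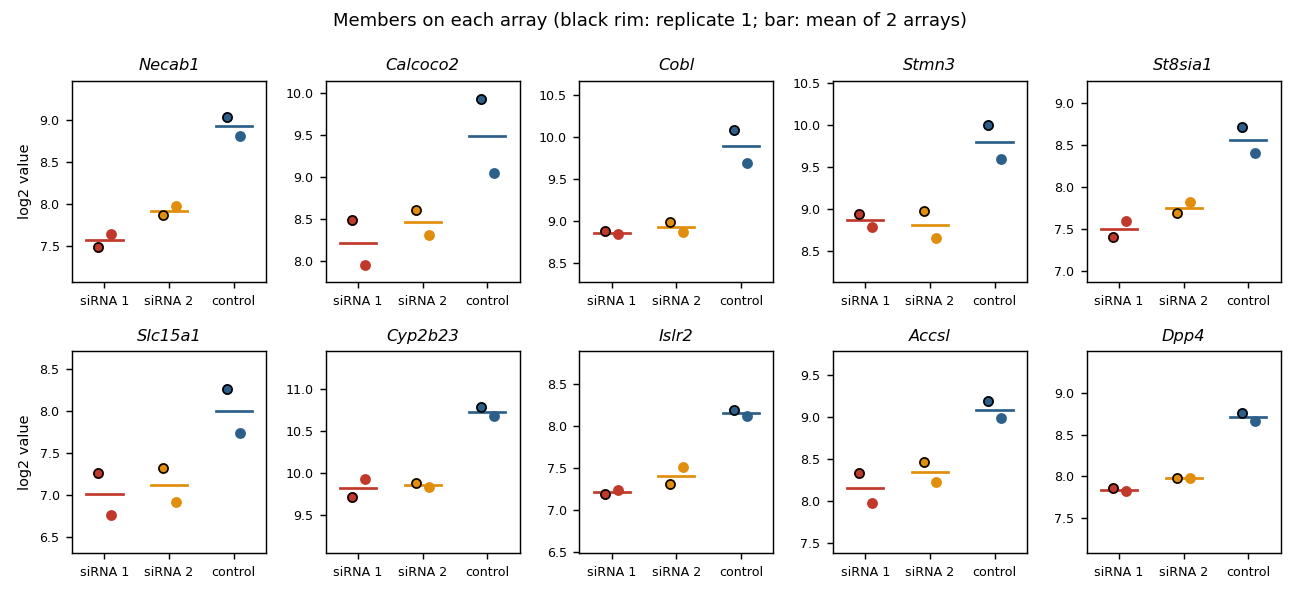
Log2 value of each of the 10 genes (vertical axes, all spanning the same range of log2 units) on the 2 arrays of siRNA 1, siRNA 2 and control; points are arrays, a black rim marks replicate 1, and bars are means of 2 arrays. Every siRNA point lies below both control points of its gene, and control replicate 1 is above control replicate 2 in all 10 panels.

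Over the list, the median log2 difference from control was -0.93 for both siRNAs, -0.96 for siRNA 1 and -0.88 for siRNA 2, beside medians of 0.01, 0.02 and -0.01 over all genes. For 10 of 10 members the 4 siRNA arrays lay below both controls, as did those of 10.1% of all genes, and 4 (Necab1, Cyp2b23, Islr2 and Dpp4) passed a limma adjusted p under 0.05, as did 0.0702% of all genes; the members were chosen on these same differences, so nothing is read from either count. The 2 comparisons with control share the control arrays. In bulk RNA, fewer cells that express a gene and less of its RNA per cell cannot be told apart.

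How the 2 siRNAs compare was not part of the choice beyond the demand for a lower value with each. Values were lower with siRNA 1 than with siRNA 2 for 9 of the 10 genes, Stmn3 (0.05) being the other one, beside 41.9% of all genes. All genes are a loose comparison for genes picked as low. At an unadjusted limma p under 0.05, 1270 genes were lower and 1152 higher with siRNA 1 than in control cells. With siRNA 2 these counts were 597 and 449. In the 5 genes of nearest profile, described below and chosen for likeness to the members, the difference ran from -0.14 (H2-M5) to 0.03 (Itga9). The median of siRNA 1 minus siRNA 2 was -0.17, beside 0.03 over all genes. It depended on single arrays: leaving out siRNA 1 replicate 2, the array that stood apart, gave -0.09 with 7 of 10 genes below 0, and leaving out siRNA 2 replicate 1 gave -0.09 with 8 of 10. For the target itself, Ncoa3, the difference was 0.00 (95% interval -0.26 to 0.27). That interval includes the members' median of -0.17, so a difference of that size in the target was not resolved.

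None of these differences passed the test. By limma, 0 of the 10 genes had an adjusted p under 0.05 (0% of all genes did, in either direction), as in an ordinary linear model without moderation, and by limma 1 had an unadjusted p under 0.05, as did 6.9% of all genes. That gene was Necab1, 7.48 and 7.64 with siRNA 1 against 7.87 and 7.97 with siRNA 2. Its log2 difference was -0.35 (standard error 0.109, 95% interval -0.61 to -0.09, limma adjusted p = 0.649). In the ordinary linear model the member under 0.05 was Dpp4 (unadjusted p = 0.0433), and Necab1 was at 0.0625. In that model 1289 of all 19938 genes were under 0.05. With quantile normalization 3 members were under 0.05 unadjusted by limma: Necab1, Islr2 and St8sia1. In that setting 1623 of all genes were. With the replicate block 2 members were, where 3104 of all genes were. For St8sia1 the difference was -0.25 (interval -0.55 to 0.05), for Islr2 -0.20 (-0.42 to 0.03) and for Dpp4 -0.14 (-0.33 to 0.05). In these 4 genes the arrays of the siRNAs did not overlap, an arrangement that 35.1% of all genes had. For Calcoco2 the interval ran from -0.95 to 0.46 and for Slc15a1 from -0.67 to 0.45, so that differences of the size seen in Necab1 were not resolved there.

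**Figure D2:**
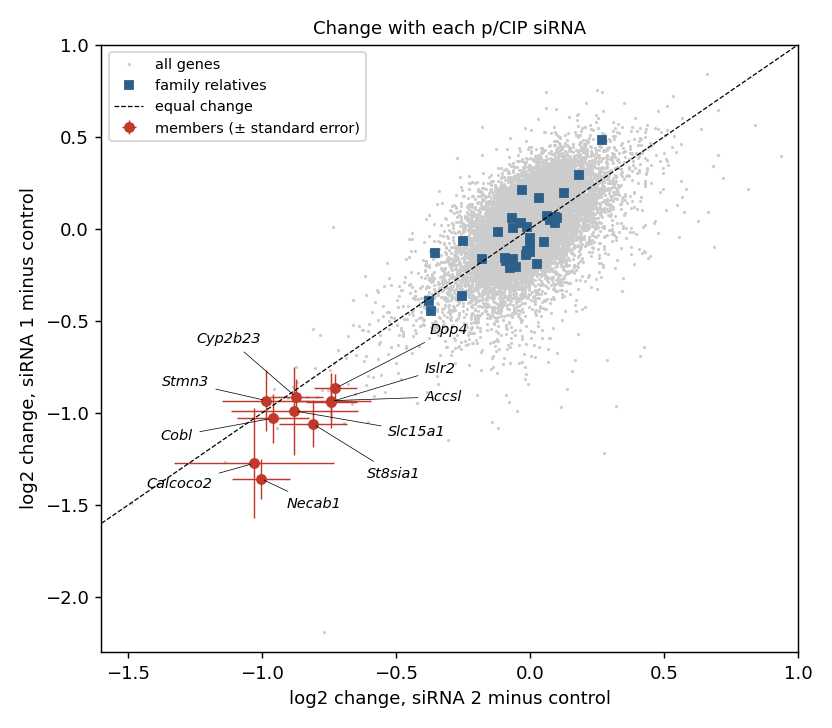
Log2 change with siRNA 1 (vertical axis) against log2 change with siRNA 2 (horizontal axis), each minus control, for the 10 members (red, with standard errors), their 33 family relatives (blue squares) and all 19938 genes (grey); the dashed line marks equal change and both axes share the control arrays. Of the members, 9 lie below the line and Stmn3 lies just above it, while the relatives lie between -0.45 and 0.48 for siRNA 1.

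Relatives from the same gene families were read beside the members. The 10 genes have 33 measured relatives. They were taken from general knowledge of the families and not picked for their values, though earlier results of these data were known. By limma 0 of the 33 were called for both siRNAs minus control, where 0.0702% of all genes were called lower and 0% higher. At an unadjusted p under 0.05, 3 were lower (4.86% of all genes) and 1 was higher (3.86%). An ordinary linear model called 0 and had 5 at that level, where 1616 of all 19938 genes were. The limma count of 4 was 8 with the replicate number as a block, where the count over all genes rose from 1739 to 3484. The relatives ran from -0.41 to 0.38 with a median of -0.04, beside 0.01 over all genes. Each lay outside the range of the members, -1.18 to -0.80, but so did nearly all genes. Dpp4, the member nearest to 0, ranked 27 from the lowest of 19938 genes. The members were chosen for low values, so nothing is read from this separation.

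The lowest relatives were the sialyltransferases St8sia6 and St8sia5, which like St8sia1 add sialic acid to sialic acid. St8sia6 read 6.79 and 6.67 with siRNA 1, 6.87 and 6.75 with siRNA 2, and 7.305 and 7.050 in control cells (log2 difference -0.41, standard error 0.0966, adjusted p = 0.28). St8sia5, which extends gangliosides, read 6.51 and 6.47 with siRNA 1, 6.57 and 6.44 with siRNA 2, and 6.96 and 6.79 in control cells (-0.38, standard error 0.0811, adjusted p = 0.223). Neither passed, though all siRNA arrays lay below control for both. The other relatives of St8sia1 were at 0.24 (St8sia2), 0.08 (St8sia4) and -0.06 (St8sia3).

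Stmn2, the stathmin of growing axons, read 12.60 and 12.71 with siRNA 1, 12.78 and 12.75 with siRNA 2, and 13.08 and 12.96 in control cells, a log2 difference of -0.31 (standard error 0.0751, adjusted p = 0.289). Stmn1, the stathmin of dividing cells, was at -0.12 and Stmn4 at -0.03. Cobll1, the relative of Cobl, lay on the other side of control: 9.60 and 9.83 with siRNA 1, 9.39 and 9.61 with siRNA 2, and 9.16 and 9.30 in control cells (0.38, standard error 0.104, adjusted p = 0.356).

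The remaining relatives were closer to control. Among the Cyp2b genes, Cyp2b9 was at -0.17, Cyp2b13 at -0.16, Cyp2b19 at -0.07 and Cyp2b10 at 0.09. Necab2 was at -0.24 and Necab3 at 0.00, and the 10 peptidases related to Dpp4, among them Dpp8, Dpp9 and Fap, ran from -0.13 to 0.08. The peptide transporters Slc15a2 to Slc15a5 ran from -0.14 (Slc15a4) to 0.07. Islr was at 0.16, Accs at -0.03, and of the relatives of Calcoco2, Calcoco1 was at 0.10 and the autophagy receptor gene Tax1bp1 at -0.13. Between siRNA 1 and siRNA 2, 0 of the 33 relatives were called by limma, as were 0% of all genes. By limma 1 relative (Prepl, -0.22) had an unadjusted p under 0.05, as did 6.9% of all genes. The count was 4 with the replicate block, where 3104 of all 19938 genes were under 0.05. It was also 4 with an ordinary linear model, where 1289 of all genes were.

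Neighbouring genes were read in the same way. RefSeq's gene order gave 20 neighbours, the nearest measured protein-coding gene on each side of each member, and 3 pairs are relatives as well, since Islr lies beside Islr2, Accs beside Accsl and Cyp2b19 beside Cyp2b23. By limma 0 of the 20 were called for both siRNAs minus control, where 0.0702% of all genes were called lower and 0% higher. At an unadjusted p under 0.05, 5 were lower and 0 higher, where 4.86% of all genes were lower and 3.86% higher. When control replicate 1 was left out, 1 neighbour was lower at this level, as were 1.66% of all genes. An ordinary linear model called 0 neighbours and had 4 lower and 1 higher at this level. In that model 4.64% of all genes were lower at this level, and 1616 of all 19938 were under it in either direction.

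Tmem64, which lies next to Necab1 and encodes a transmembrane protein, was lowest. It read 10.76 and 10.75 with siRNA 1, 10.62 and 10.61 with siRNA 2, and 11.31 and 11.10 in control cells (log2 difference -0.52, standard error 0.0798, adjusted p = 0.134). With limma's trend and robust options its adjusted p was 0.0294, the single call among the neighbours in any alternative; over the 15 alternatives it ran from 0.0294 to 1.000. The Tmem64 values were lower with siRNA 2 than with siRNA 1, the reverse of the Necab1 order.

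The other 4 were Vstm2a beside Cobl (-0.38, adjusted p = 0.538), C2cd5 beside St8sia1 (-0.37, 0.355), the tubulin glutamylase gene Ttll6 beside Calcoco2 (-0.36, 0.339) and the telomere helicase gene Rtel1 beside Stmn3 (-0.28, 0.345), all limma values. C2cd5 read 9.59 and 9.45 with siRNA 1, 10.14 and 9.89 with siRNA 2, and 10.22 and 10.05 in control cells, so that its siRNA 2 arrays overlapped control. The remaining 15 neighbours ran from -0.09 (Cobl's neighbour Grb10) to 0.21 (Dpp4's neighbour Gcg, the gene of glucagon).

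**Figure D3:**
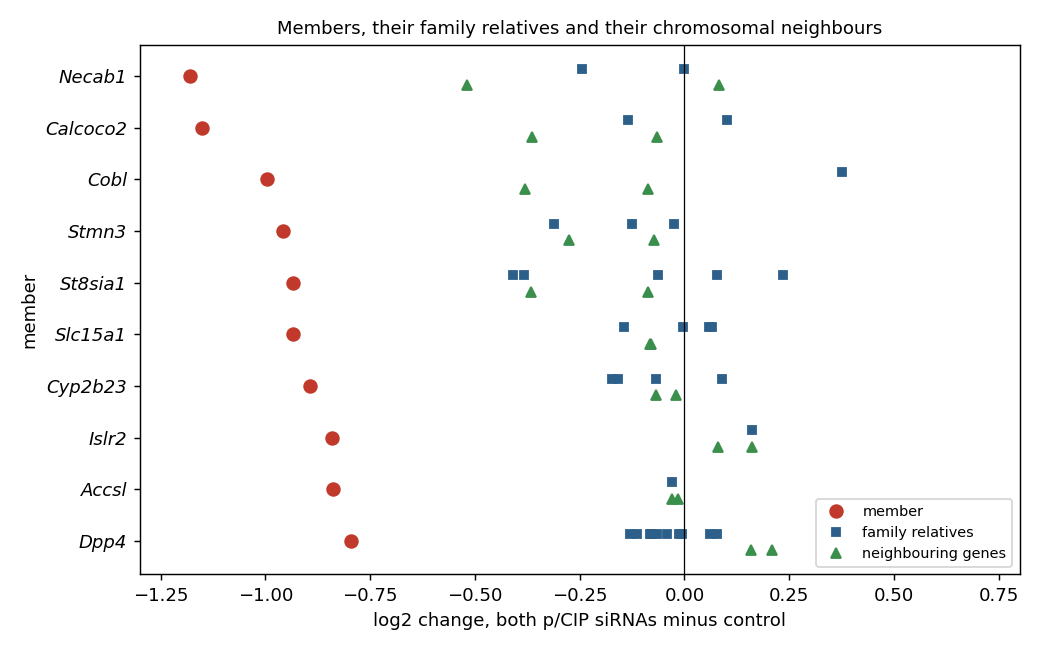
Log2 change for both siRNAs minus control (horizontal axis) of each member (red circle), its family relatives (blue squares) and its neighbouring genes (green triangles), with the members down the page from the largest to the smallest difference. All relatives and neighbours lie to the right of their member, and 1 of them, Tmem64 in the Necab1 row, is below -0.5. The members were chosen for low values, so nothing is read from this placing.

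Lists for the processes the members belong to were also read, with the members left out. They come from general knowledge and hold 147 measured genes. By limma 0 were called for both siRNAs minus control, where 0.0702% of all genes were. By limma 16 had an unadjusted p under 0.05 (8.72% of all genes did, in either direction). An ordinary linear model called 0 and had 15 at that level, where 1616 of all 19938 genes were. With the replicate block the limma count was 27, where 3484 of all genes were under 0.05. List medians lay between -0.05 and 0.03, beside 0.01 over all genes.

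Around Stmn3, Necab1 and Islr2, the neuronal list had 13 of 19 measured genes below control (median -0.05), 4 lower and 2 higher at an unadjusted p under 0.05, where 4.86% of all genes were lower and 3.86% higher. Its mean level was 8.08 to 8.18 on the siRNA arrays, against 8.20 on both control arrays. Its smallest p belonged to the adhesion gene Ncam1 (-0.39, limma adjusted p = 0.246), Stmn2 and the neuronal tubulin Tubb3 (-0.32, 0.359). In the list of microtubule regulators 14 of 22 were below control (median -0.04), led by the same Stmn2 and Tubb3 and by the kinesin gene Kif18a (-0.31, 0.526). For actin nucleators, the class of Cobl, 16 of 30 were below control (median -0.01), with the Arp2/3 subunit Arpc5 at -0.43 (0.222), the formin Fmn1 at 0.34 (0.336) and Fhod3 at -0.24 (0.356). The Arpc5 value came from 1 siRNA: it read 9.72 and 9.52 with siRNA 1, 10.62 and 10.80 with siRNA 2, and 10.60 and 10.58 in control cells. Its log2 difference from control was -0.97 with siRNA 1 (limma adjusted p = 0.0513) and 0.11 with siRNA 2 (0.999), and siRNA 1 minus siRNA 2 was -1.08 (0.146).

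For ganglioside synthesis, the pathway of St8sia1, 9 of 15 genes were below control (median -0.02). Apart from St8sia5, those of smallest p were the galactosyltransferase gene B3galt4 (-0.17, adjusted p = 0.62) and Ugcg, which makes glucosylceramide at the head of the pathway (0.14, 0.628). Genes of absorptive epithelium and the brush border, where Dpp4 and Slc15a1 act, had 9 of 26 below control (median 0.03) and 0 at an unadjusted p under 0.05 by limma; their mean level was 7.31 to 7.52 on the siRNA arrays and 7.32 and 7.41 on the control arrays, and Slc2a5 was at -0.22 (0.579), Lrp2 at 0.50 (0.647) and Ush1c at 0.15 (0.663). Among xenobiotic P450 genes and their regulators 7 of 15 were below control (median 0.00), 0 at that level, with the receptor gene Nr1i3 at 0.18 (0.656), Cyp3a13 at 0.15 (0.702) and Cyp2u1 at 0.11 (0.735). For selective autophagy, the process of Calcoco2, 13 of 22 were below control (median -0.02), with Gabarapl2 at -0.29 (0.331), Sqstm1, the gene of the receptor p62, at 0.18 (0.539) and Fundc1 at -0.29 (0.554). None of these genes passed.

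Markers of the stem cells and of other cell types were read beside the members, and their part in the result was not tested. Over all genes, 9502 of 19938 were below control and 10436 above. Of 14 embryonic stem cell markers 12 were below control, and their mean level was 11.62 to 11.77 on the siRNA arrays, against 11.84 and 11.95 on the control arrays. Those of smallest p were Klf4 (-0.78, limma adjusted p = 0.134), Esrrb (-0.50, 0.186) and Nanog (-0.33, 0.333). Of 12 trophoblast markers 11 were above control (mean level 8.84 to 9.12 on siRNA arrays, 8.81 and 8.91 on control arrays, an overlap), with Plet1 at 0.41 (0.277), Eomes at 0.29 (0.401) and Ascl2 at 0.30 (0.511). Extraembryonic endoderm markers overlapped between the groups (8.560 to 8.998, and 8.48 and 8.73; 11 of 14 above control), with Lamb1 at 0.40 (0.592), Sox7 at 0.19 (0.67) and Foxa2 at 0.18 (0.737). Fibroblast feeder markers did so too (7.40 to 7.60, and 7.38 and 7.48; 10 of 13 above), with Thy1 at 0.35 (0.438), Twist1 at 0.26 (0.534) and Vim at -0.14 (0.643). Neural progenitor markers split evenly, 5 below and 5 above control (7.86 to 7.96, and 7.85 and 7.89), with Otx2 at 0.33 (0.339), Sox3 at 0.18 (0.62) and Pax6 at -0.14 (0.633). By limma 0 genes of these 5 lists were called; at an unadjusted p under 0.05, 6 stem cell markers were lower, and 3 trophoblast, 2 feeder, 1 neural progenitor and 0 endoderm markers were higher, where 4.86% of all genes were lower and 3.86% higher.

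The genes whose profile over the 6 arrays was most like the mean profile of the 10, by Euclidean distance after centring each gene, were Jam2, H2-M5, Nr0b1, Sfrp1 and Itga9, at distances of 0.099 to 0.259 log2 units. The members themselves lay at 0.124 (Cobl) to 0.572 (Calcoco2) from their own mean. Jam2, a junctional adhesion molecule, read 11.02 and 10.87 with siRNA 1, 11.11 and 10.95 with siRNA 2, and 12.13 and 11.82 in control cells. H2-M5, from the mouse major histocompatibility complex, read 7.82 and 7.64 with siRNA 1, 7.84 and 7.89 with siRNA 2, and 8.93 and 8.68 in control cells. Nr0b1 (Dax1), an orphan nuclear receptor of stem cells, read 12.23 and 12.18 with siRNA 1, 12.30 and 12.26 with siRNA 2, and 13.18 and 13.05 in control cells. In these 3 genes, too, all siRNA arrays lay below control and control replicate 1 was on top; the likeness to the members is what chose them. Sfrp1, a secreted inhibitor of WNT, was at -0.91 and the integrin gene Itga9 at -0.87 for both siRNAs.

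**Figure D4:**
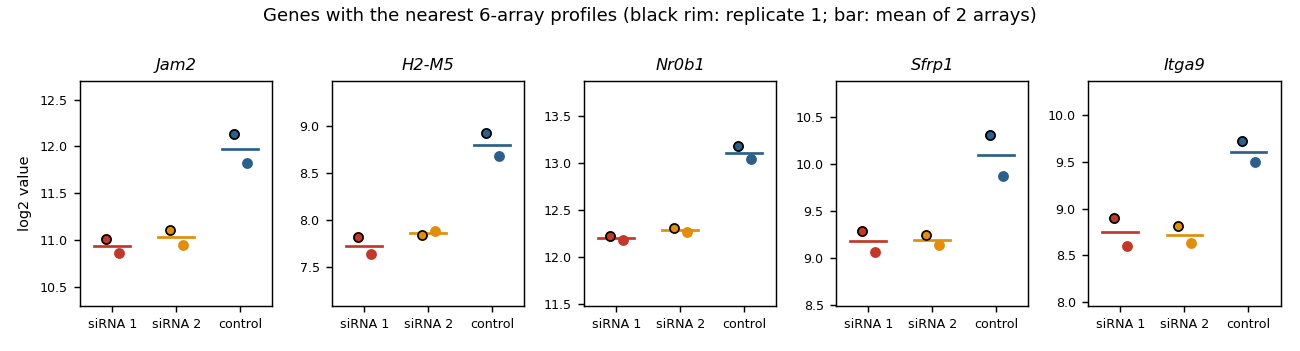
Log2 value (vertical axes, all spanning the same range) of the 5 genes with the profiles nearest to the members' mean, on the 2 arrays of siRNA 1, siRNA 2 and control; a black rim marks replicate 1 and bars are means of 2 arrays. In each gene the siRNA points lie below both control points, and control replicate 1 is the highest array.

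The members also differed from each other in how the 2 arrays of a group related. Replicate 2 lay below replicate 1 in all 3 groups for 5 of the 10 genes (Stmn3, Slc15a1, Accsl, Cobl and Calcoco2), beside 21.4% of all genes. For Slc15a1 the differences were -0.50 with siRNA 1, -0.40 with siRNA 2 and -0.53 in control cells, and for Calcoco2 -0.53, -0.30 and -0.88. Necab1, Islr2 and St8sia1 had replicate 2 above replicate 1 with both siRNAs (0.06 to 0.20) and below it in control cells (-0.08 to -0.30).

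In control cells, replicate 2 was below replicate 1 for 10 of the 10 genes (median -0.27), beside 52.6% of all genes (median -0.01). Set against control replicate 2 alone, the members had a median of -0.77 for both siRNAs, and set against control replicate 1 alone, of -1.12. Every member stayed below 0 in each, with values from -1.07 to -0.67 and from -1.59 to -0.84. This comparison was chosen after the values were seen, and the control arrays took part in choosing the members.

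**Figure D5:**
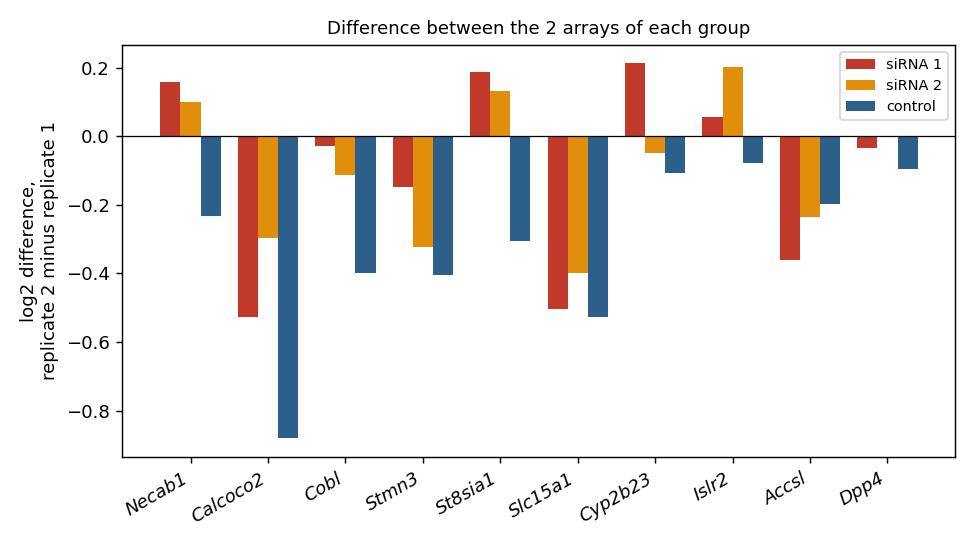
Log2 difference between the 2 arrays of a group, replicate 2 minus replicate 1 (vertical axis), for each member (horizontal axis) in siRNA 1, siRNA 2 and control. Control bars are below 0 for all 10 genes, reaching -0.88 for Calcoco2, while those of siRNA 1 and siRNA 2 point both ways.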

How the data were processed

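The authors deposited 1 processed value per probe set and array, on a scale taken to be log2 from the values. Per the submitters' processing notes Partek was used; which version, and with what background correction, summarization or normalization, is not given in the sources used here. Of 35556 probe sets, GEO's platform annotation gives 1 symbol for 21789, several for 1621 (left unnamed), and does not list 12146. For 999 genes with several probe sets, the one with the highest mean was used.

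All 3 groups were fitted together in limma 3.58.1 (R 4.3.3; lmFit and eBayes, 3 residual and 3.84 prior degrees of freedom) over 19938 genes with no filter. Tests were two-sided, and every adjusted p is limma's with Benjamini-Hochberg adjustment over all genes; under 0.05 is a call. The script was tested on simulated data. The members and lists were chosen with earlier results of these data known. The 22 lists come from general knowledge; any gene called and up to 3 of smallest p are named from each, with all members, relatives, neighbours of unadjusted p under 0.05 and the 5 nearest profiles; a few further neighbours were named after their values were seen.

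Arrays with equal replicate numbers deviated together across genes, with correlations of 0.461 between siRNA 1 and siRNA 2, 0.464 between siRNA 1 and control, and 0.407 between siRNA 2 and control. As all exceed 0.1, equal numbers were treated as pairs in an alternative fit, the replicate block. The main fit had no block, so its standard errors, intervals and p-values ignore this pairing. The pairing comes from the data and not the labels, and with 2 arrays a group it is a weak check. Alternatives changed the normalization, centring, probe set rule, filter, blocks, variance model or left out 1 array. Promoter sequences are RefSeq's. No coordinates are given for probe sets, as no build is named for them.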

Additional observations from a re-analysis of the deposited data

How the results depend on the processing

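The members' differences from control kept their sign under all 15 alternatives in which each was measured; a filter that kept genes above the median level of 7.81 left out Islr2 and Slc15a1. Of these 10 differences, 2 moved by over 1.5 times: Calcoco2, from -1.15 to -0.71 without control replicate 1, and Stmn3, to -0.44 when its probe sets were averaged, since the second one is near 0. Calls were 0 under every alternative for the members and relatives between the siRNAs, and for relatives and pathway genes against control. For neighbours, 1 was called with trend and robust options and 0 in the other alternatives.

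Calls over all genes depended far more on the settings. For both siRNAs minus control the 14 became 38 with the filter, 71 with trend and robust options, 0 with array code order as a block and 0 without moderation; leaving out 1 array gave 0 (either control or either siRNA 2 array) to 37 (siRNA 1 replicate 1; 23 without siRNA 1 replicate 2). For siRNA 1 minus control the 14 became 37 with cyclic loess, 35 with medians aligned, 85 with the filter, 150 with trend and robust options, and 0 with array code order or without moderation; leaving out 1 array gave 0 to 437. For siRNA 2 minus control the 0 became 2 with quantile normalization, 2 with cyclic loess, 5 with medians aligned, 11 with the filter and 17 with trend and robust options; leaving out 1 array gave 0 to 10. For siRNA 1 minus siRNA 2 the 0 became 4 with medians aligned, 4 with the filter and 23 with trend and robust options; leaving out 1 array gave 0 to 2. The cause was not tested.

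With the replicate block, both siRNAs minus control gave 68 calls (62 lower, 6 higher), siRNA 1 minus control 241, siRNA 2 minus control 26, and siRNA 1 minus siRNA 2 gave 15. The block changed no call among the relatives, neighbours or pathway genes against control, or among the members and relatives between the siRNAs, where the smallest adjusted p of a member was 0.254. With it, 5 neighbours were lower and 1 higher at an unadjusted p under 0.05, when 8.95% of all genes were lower. With the block, 3484 of all 19938 genes were under 0.05 in either direction. With 2 arrays a group, dim genes and small changes cannot be resolved.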

Other observations

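All 8 members with a promoter in the RefSeq table (Cyp2b23, Islr2, Dpp4, Stmn3, Slc15a1, Accsl, St8sia1 and Cobl) are annotated on the minus strand, where 49.8% of the 27025 genes in the table lie. This was noticed after the sequences were read, and it is given as a count without a test.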
